A study of Caenorhabditis elegans with 4 samples.

Results

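Chromosome IV of C. elegans carried 622 of the 3503 LIN-13 peaks in the combined list of a ChIP-seq study of larvae at the second stage (L2), together with 269 of the 1494 peaks called in ChIP replicate 1 and 392 of the 1997 peaks called in ChIP replicate 2. The peaks were chosen by position alone, as every peak that the lists place on chromosome IV of genome build WormBase WS180. The ChIP samples numbered 2 and the input samples of total chromatin 2. All 4 came from hermaphrodites of strain OP49, which carries unc119(ed3) and the transgene wgIs49, were grown at 20 degrees and were fixed with 2% formaldehyde. The transgene was introduced by particle bombardment, joins lin-13 to TY1, EGFP and FLAG tags and brings unc119 as its marker, and an antibody against GFP recovered the tagged protein. No mutation of the chromosomal lin-13 gene is listed, so the tagged protein was measured in worms whose labels name no loss of the untagged one. The labels name no untagged strain, and input values were not analysed here, so no background level stands beside the peaks. In the labels, the free-text descriptions of ChIP and input appeared exchanged relative to titles and source names, which was not tested, and samples were assigned by their titles. The labels do not say whether the samples came from separate cultures.

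LIN-13, a protein with zinc fingers, belongs to the synMuv B proteins, which repress germline genes in somatic cells and oppose vulval fates. It is known to act together with the heterochromatin protein HPL-2, which binds histone H3 methylated at lysine 9. In C. elegans autosomes that mark and many repeats are more frequent in the chromosome arms, and widely expressed genes are more frequent in the centre. Chromosome IV also holds most of the genes for 21U-RNAs, the piRNAs of the worm, and these were not located here. Peaks are named by position, because no annotation or genome sequence of WS180 was used.

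The combined peaks of chromosome IV spanned 7 to 4876 bp and covered 417076 bp, which was 2.39% of the analysed extent of 17.5 Mb. Their median width was 492.5 bp (quartiles 365.25 and 751.75 bp), against 495 bp (356 and 770 bp) on the other autosomes. In the replicate lists the median on chromosome IV was 478 bp in replicate 1 and 490 bp in replicate 2, against 496.5 and 492 bp on the other autosomes. These medians were not tested. The strength of a peak is given as −log10 of the q-value that the authors deposited, which ranks peaks within 1 list and also depends on sequencing depth, unknown here. Its median was 7.21 for combined peaks of chromosome IV (quartiles 4.71 and 12.7) and 6.90 for those of the other autosomes (4.69 and 12.6).

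The strongest peak of chromosome IV was IV 8430666 to 8433412, near the middle of the chromosome, 2747 bp wide and with −log10 q of 111.7. It ranked 18 in the combined list. Its partner in replicate 1 had −log10 q of 56.0 and rank 14, and its partner in replicate 2 had 68.3 and rank 13. The second was IV 14032543 to 14035118 in the right arm, 2576 bp wide, with 92.1 in the combined list, 43.3 in replicate 1 and 56.0 in replicate 2. These were the strongest peaks of the centre and of the right arm, and they were of similar width.

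The next 2 peaks had high values over a much narrower interval. IV 4749588 to 4750397 was 810 bp wide, with −log10 q of 81.8 in the combined list, 49.9 in replicate 1 and 64.2 in replicate 2. IV 654590 to 655378, the strongest peak of the left arm, was 789 bp wide, with 79.9, 51.04 and 62.9. In both replicates these narrow peaks had a higher −log10 q than the wide peak of the right arm, which stood above them in the combined list alone.

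The remaining peaks among the 10 strongest were IV 10933041 to 10937258 (−log10 q 74.7), IV 3049847 to 3051542 (72.2), IV 11954485 to 11957742 (61.5), IV 17277868 to 17279200 (60.9), IV 11592760 to 11595121 (54.5) and IV 2219082 to 2220495 (53.8). The third of the right arm was IV 14464003 to 14464444, only 442 bp wide, with 48.2 in the combined list, 23.5 in replicate 1 and 29.4 in replicate 2. All 10 overlapped a peak in both replicates, and they fell in every region, with 3 in the left arm, 5 in the centre and 2 in the right arm. Chromosome IV held 17.8% of all combined peaks, and 1 of the best 20 combined peaks (5%), 11 of the best 100 (11%) and 89 of the best 500 (17.8%). In replicates 1 and 2 it held 3 of the best 20 in each (15%), against 18.01 and 19.6% of all peaks in those lists. Of their best 100 it held 15 (15%) and 12 (12%), and of their best 500 it held 90 (18%) and 94 (18.8%). All autosomes together held 12 of the best 20, 80 of the best 100 and 441 of the best 500 combined peaks. They held 11, 76 and 426 in replicate 1, and 11, 78 and 440 in replicate 2. The shares of chromosome IV are therefore not a comparison with the other autosomes alone.

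The arms of chromosome IV, taken as the outer 25% of its extent at each end, were unequal. The left arm held 178 combined peaks, or 40.8 per Mb, and the right arm 110, or 25.2 per Mb, while the centre held 334, or 38.2 per Mb. The right arm was thus the sparse region, while the left arm was slightly denser than the centre. Of the peaks in both arms together, 61.8% lay in the left arm on chromosome IV (Wilson interval 56.1 to 67.2%), against 47.3% on the other autosomes (44.4 to 50.3%). The difference of 14.5 percentage points (interval 7.99 to 20.6) passed Fisher's exact test (adjusted p = 0.00018, over 12 tests). Interval and test take peaks as units and do not cover variation between the other autosomes, which singly ranged from 38.2 to 52.8%.

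Each ChIP sample showed this inequality in its own list. Replicate 1 had 80 peaks in the left arm of chromosome IV and 50 in the right arm, a left share of 61.5% against 49.1% on the other autosomes. Replicate 2 had 113 and 72, a left share of 61.1% against 46.8%. By Fisher's exact test the difference in replicate 1 had an unadjusted p of 0.013 and did not pass (adjusted p = 0.11), and that in replicate 2 passed (adjusted p = 0.0088).

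**Figure D1:**
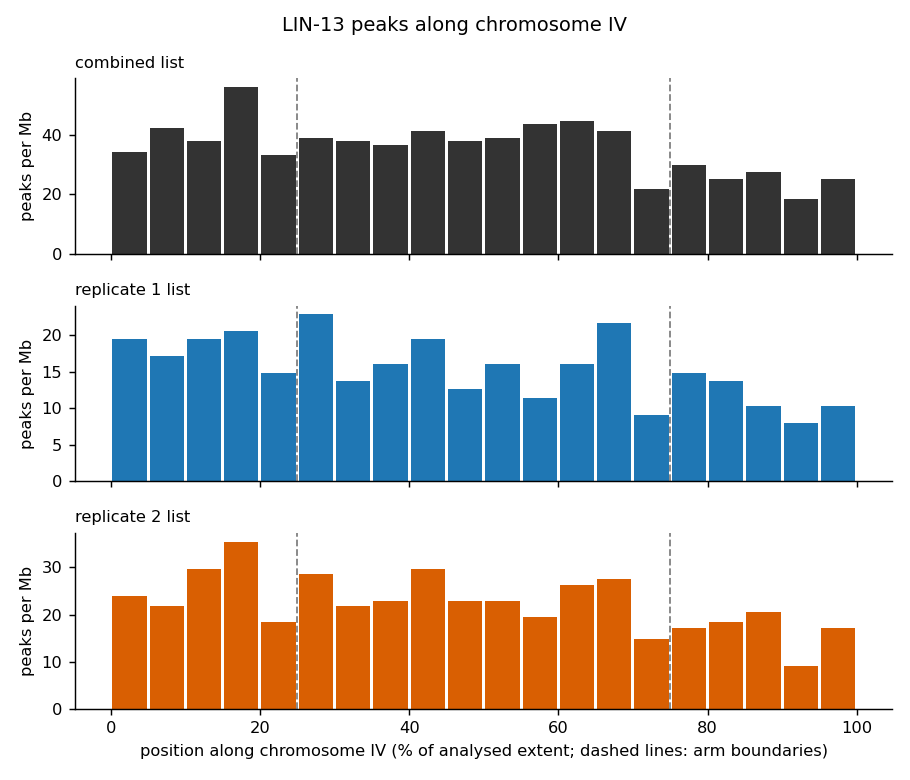
Peaks per Mb in 20 bins of 5% along chromosome IV, for the combined list and each replicate list. Dashed lines mark the arms, and bars beyond 70% of the extent are low in the combined list.

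Arms were also unequal on another autosome. On chromosome II the left arm held 38.2% of the arm peaks in the combined list, 35.5% in replicate 1 and 32.8% in replicate 2. Its sparse arm was thus on the left. In both replicate lists the arms of II were further from equal than those of IV, at 61.5 and 61.1%. The shares of chromosomes I, III and V were 49.8, 52.8 and 44.6%. Chromosome IV had the highest left share of the 5 autosomes in each of the 3 lists. Left out one at a time, chromosomes I, II, III and V changed the difference to 15.2, 11.7, 17.5 and 13.9 percentage points, and it passed each time. Peaks that lie close together are not independent, and Fisher's exact test treats them as if they were. With peaks joined into 1 unit wherever a gap was 5000 bp or less, the left arm held 121 of 188 arm units on chromosome IV, against 329 of 716 on the other autosomes (Fisher's exact test, adjusted p = 0.0001). The units were still treated as independent, and joining leaves longer gaps as they were. Gaps of more than 100000 bp took up 54.2% of the length of the right arm of chromosome IV. Joining therefore does not settle dependence over longer distances. Over chromosomes in place of peaks, the comparison is 1 against 4, too few for an exact test over chromosomes to pass.

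**Figure D2:**
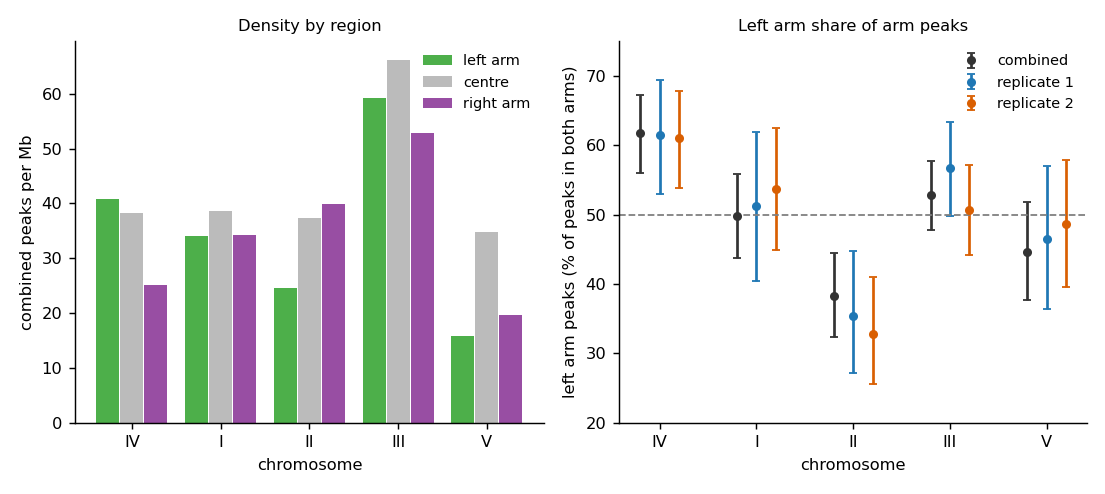
Left, combined peaks per Mb in the left arm, centre and right arm of each autosome. Right, left arm peaks as a percentage of all arm peaks in each list, with 95% Wilson intervals that cover counting of peaks only. Chromosome IV lies between 61.1 and 61.8% in the 3 lists.

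Counted in bins of 1 Mb, combined counts were lower beyond 12 Mb. Only 1 full bin beyond it, with 20 peaks, lies before the right arm. The bin after that held 32 peaks, close to the 33 of the lowest earlier bin. The 12 bins up to 12 Mb held 33 to 52 combined peaks each (median 40), and the 5 full bins beyond held 20 to 32 (median 22). The groups of bins did not overlap in the combined list or in replicate 2, where the first 12 held 20 to 39 peaks and the next 5 held 12 to 19. In replicate 1 they did, at 10 to 25 and 9 to 15. The boundary at 12 Mb was chosen after the counts were seen, and no test is given. The fullest bins were IV 11000001 to 12000000 with 52 peaks and IV 2000001 to 3000000 with 50, and the emptiest was IV 12000001 to 13000000 with 20. The fullest bin and the emptiest one were thus neighbours.

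The sparse right arm was made of peak groups separated by long empty stretches. Gaps of more than 100000 bp between neighbouring combined peaks numbered 15 in the right arm, against 5 in the left arm and 13 in the centre. They took up 54.2% of the length of the right arm, 14.6% of the left arm and 21.6% of the centre. The median gap was nevertheless the shortest in the right arm, at 11809 bp, against 14564 bp in the left arm and 13868.5 bp in the centre. On other autosomes such gaps took up as much of the left arm of II (53.7%) and more of both arms of V (69.8 and 58.3%), so that this feature was shared with sparse arms elsewhere.

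The longest gaps of chromosome IV were IV 13430492 to 13695397 (264906 bp), IV 12771787 to 13025815 (254029 bp) and IV 16181455 to 16382067 (200613 bp). None of the 3 contained a peak in either replicate list. The first 2 lie on either side of the boundary between centre and right arm.

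Over the whole of chromosome IV, peaks were often close together. The median gap was 13942 bp in the combined list (quartiles 2229 and 38564 bp), against 10977 bp on the other autosomes (2568.5 and 33404.5 bp). By chromosome it was 13611 bp on I, 12603 bp on II, 7931 bp on III and 16079 bp on V. Chromosome IV thus lay within the range of the others, and III had the shortest median gap. A gap of 1000 bp or less separated 14.7% of neighbours on chromosome IV and 12.6% on the other autosomes. No gap was shorter than 200 bp on any autosome in any of the lists, which sets a floor to the spacing that the lists can show.

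A cluster was defined as 3 or more combined peaks, each within 5000 bp of the next. Chromosome IV had 49 clusters with 172 peaks (27.7%), against 28.7% of peaks in clusters over all chromosomes. Another 264 peaks stood alone and 93 runs held 2 peaks. The share in clusters was 31.04% on the other autosomes, and the difference of −3.39 percentage points (interval −7.23 to 0.67) missed the threshold (adjusted p = 0.26 by Fisher's exact test). Clusters spanned 1556 to 12504 bp (median 7407 bp). In 42 of the 49 at least 1 peak was found in both replicates, and none was made up only of peaks found in neither. Of all chromosome IV peaks 38.7% were found in both and 36.8% in neither, and a cluster holds 3 to 7 peaks. Most clusters would therefore hold a peak found in both by size alone, and these counts were not tested. The left arm had 12 clusters, the centre 26 and the right arm 11, and 26.4, 25.7 and 35.5% of the peaks of these regions were in clusters. With the same rule the shares were 7.5, 10.8 and 26% in the replicate 1 list, and 18.6, 14.01 and 18.1% in that of replicate 2. The right arm was thus not the highest in replicate 2, and these shares by region were not tested.

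The largest cluster was IV 2704022 to 2711687, where 7 combined peaks lay within 7666 bp, with 3 peaks of replicate 1 and 6 of replicate 2. Its strongest peak had −log10 q of 17.1 and its weakest 3.88. A cluster of 5 peaks to its left, IV 2599633 to 2607864, reached 39.5. Further clusters of 5 were IV 3158237 to 3167304 and IV 4019497 to 4031549 in the left arm, and IV 13386043 to 13395650 in the right arm. In the first of these 4 of the 5 peaks were found in neither replicate, while in the one of the right arm 4 of the 5 were found in both. Another cluster of 5 peaks with a longer span, IV 10499803 to 10512292, lay in the centre. Of these 6 clusters, 4 lay in the left arm.

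Peaks of 1500 bp or more numbered 46 (7.40%), against 7.94% over all chromosomes and 7.45% on the other autosomes. The difference from the other autosomes was −0.05 percentage points (interval −2.17 to 2.47; Fisher's exact test, adjusted p = 1). No chromosome IV peak reached the width of the widest peaks elsewhere. Its widest had 4876 bp, against 7567, 15670, 5424 and 10225 bp on I, II, III and V. Peaks of 1500 bp or more made up 24.9% of the bases covered on chromosome IV and 29.2% on the other autosomes.

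The 5 widest peaks all exceeded 4000 bp, and each of them spanned at least 2 separate peaks in 1 or both replicate lists. IV 4469592 to 4474467 (4876 bp) had −log10 q of 39.7 in the combined list. It overlapped peaks with 19.5 and 6.37 in replicate 1, and in replicate 2 a single peak of 6401 bp with 38.1, wider than any combined peak of the chromosome. That peak and the stronger one of replicate 1 also overlapped the neighbouring combined peak, IV 4467928 to 4469347. IV 291681 to 296207 (4527 bp) had 29.2 in the combined list, where replicate 1 had 3 peaks with 7.32, 5.02 and 5.56 and replicate 2 had 2 peaks with 8.72 and 6.50. IV 9438558 to 9442967 (4410 bp) had 51.5, where replicate 1 had peaks of 1570 and 2375 bp with 10.5 and 9.54 and replicate 2 had peaks of 1413 and 2284 bp with 10.9 and 11.4. The joined interval thus stood in the combined list where both replicates showed the same pair of narrower peaks.

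IV 14610471 to 14614762 (4292 bp) had 38.1 in the combined list, where replicate 1 had 1 peak with 16.7 and replicate 2 had 3 with 6.13, 11.9 and 5.10. IV 10933041 to 10937258 (4218 bp) had 74.7, where replicate 1 had 13.3 and 24.1 and replicate 2 had 19.4 and 24.3. Over the whole chromosome, 6 combined peaks overlapped 2 or more peaks of replicate 1 and 11 overlapped 2 or more of replicate 2. Conversely, 1 peak of replicate 1 and 7 of replicate 2 each overlapped 2 combined peaks.

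In the left arm 3.93% of the peaks were wide (7 of 178, Wilson interval 1.92 to 7.89%), in the centre 7.78% (26 of 334, 5.37 to 11.2%) and in the right arm 11.8% (13 of 110, 7.04 to 19.2%). The difference between the arms was seen afterwards and was not tested. Both arms together did not differ detectably from the centre, at 6.94 against 7.78% (difference −0.84 percentage points, interval −4.99 to 3.44; Fisher's exact test, adjusted p = 0.83). Wider peaks tended to be stronger across the 622 peaks (Spearman's rho 0.52). This is a description, since both come from the same reads and a wider peak holds more of them.

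**Figure D3:**
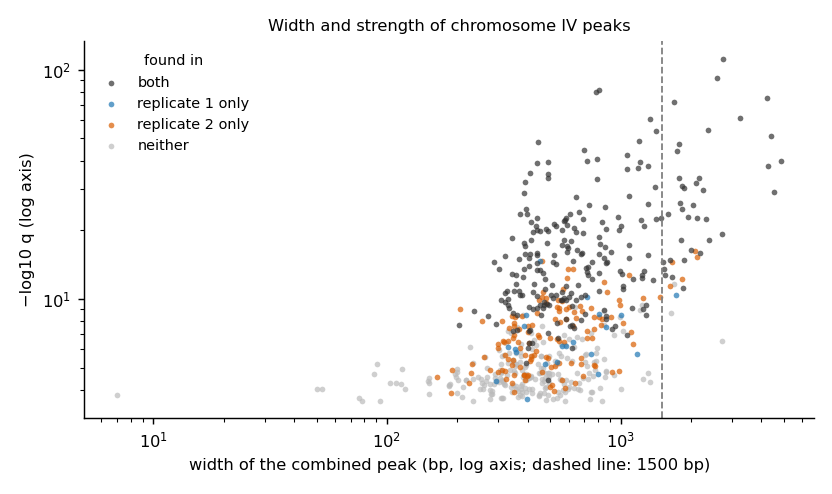
Width of each combined peak of chromosome IV (x, bp) against −log10 q (y), both on log axes, coloured by the replicate lists in which the peak was found. Peaks of 1500 bp or more (right of the dashed line) were mostly found in both replicates.

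Presence in the replicate lists was scored by an overlap of at least 1 bp. Of the 622 combined peaks of chromosome IV, 241 (38.7%) overlapped peaks of both replicates, against 35.7% over all chromosomes. Peaks found only in replicate 2 numbered 131 (21.1%, against 18.2%), and those found only in replicate 1 numbered 21 (3.38%, against 5.17%). The other 229 (36.8%, against 40.9%) overlapped neither. Since the combined data presumably come from the same ChIP samples, overlap and its increase with strength were built in.

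Against the other autosomes, where 34.5% were found in both and 42.1% in neither, the differences were 4.23 percentage points (interval 0.02 to 8.53) and −5.31 percentage points (interval −9.50 to −0.99). Neither passed (Fisher's exact tests, adjusted p = 0.16 and 0.11). Chromosome I, at 27.7% in both and 52.7% in neither, lay far from the rest. Without it the differences were 2.29 and −2.29 percentage points. Without chromosome III the difference in the share in neither was −8.06 percentage points, and without chromosome II it was −6.12, and both of these passed (Fisher's exact tests, adjusted p = 0.0036 and 0.046). Which autosomes are set beside chromosome IV therefore changed this call.

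The strongest chromosome IV peaks were mostly found in both replicates and the weakest mostly in neither. With the peaks ordered by q in 4 parts of about equal number, 95.5, 52.9, 5.81 and 0.64% were found in both, from the strongest to the weakest part. In neither were 0 of 156 in the strongest part, and then 8.39, 53.5 and 85.3%. The 0 of 156 would allow a share of up to 1.92% if the peaks were independent draws, which they are not. The median −log10 q was 15.02 for peaks found in both, 6.75 for those only in replicate 2, 6.20 for those only in replicate 1 and 4.53 for those in neither. The median widths of these classes were 623, 488, 563 and 403 bp. Of the 46 wide peaks, 37 (80.4%) were found in both.

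**Figure D4:**
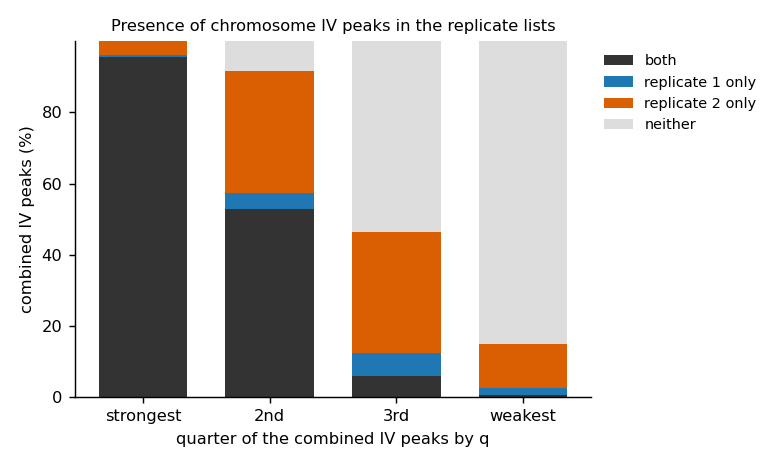
Share of combined chromosome IV peaks (%) found in both replicate lists, in 1 of them or in neither, in 4 parts by q. Presence in both is 95.5% in the strongest part and 0.64% in the weakest.

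Presence in both replicates was 38.8% in the left arm, 37.7% in the centre and 41.8% in the right arm. For arms against centre the shares were 39.9 and 37.7% (difference 2.21 percentage points, interval −5.43 to 9.85; Fisher's exact test, adjusted p = 0.74). Clustered peaks were found in both in 41.9% of cases, against 37.6% of the other peaks (difference 4.30 percentage points, interval −4.15 to 12.95; Fisher's exact test, adjusted p = 0.54).

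The strongest combined peaks with no partner in either replicate were IV 3350266 to 3351954 (−log10 q 11.6, 1689 bp), IV 2603562 to 2604801 (9.33, 1240 bp) and IV 7785664 to 7786299 (9.22, 636 bp). The first ranked 171 among the 622. The second belongs to the cluster of 5 peaks at IV 2599633 to 2607864.

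The replicate lists were then compared with each other. In replicate 1, 244 of 269 chromosome IV peaks (90.7%) overlapped a replicate 2 peak, against 86.7% over all chromosomes and 86.1% on the other autosomes. In replicate 2, 245 of 392 (62.5%) overlapped a replicate 1 peak, against 64.4% over all chromosomes and 64.3% on the other autosomes. The differences from the other autosomes, 4.63 percentage points (interval 0.11 to 8.32) and −1.76 (interval −7.25 to 3.55), did not pass (Fisher's exact tests, adjusted p = 0.16 and 0.73).

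Strength was ordered alike in the replicates. Over the 244 replicate 1 peaks with a partner, −log10 q had Spearman's rho of 0.73 with that of the replicate 2 peak of largest overlap. These points share a strain and a protocol, and the value is a description. Replicate 2 had the higher value in 176 pairs (72.1%), with a median ratio of 1.18 to replicate 1. The edges of a peak were placed alike, with a median difference of 51 bp between starts and 45.5 bp between ends.

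**Figure D5:**
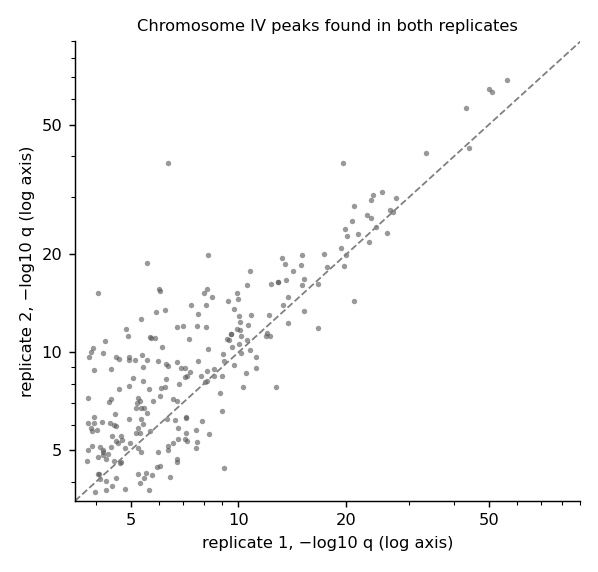
−log10 q of the 244 chromosome IV peaks of replicate 1 (x) and of their partners in replicate 2 (y), on log axes. The dashed line marks equal values, and 176 points lie above it.

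The strongest chromosome IV peak found in 1 replicate alone was IV 5753231 to 5754704 in replicate 2, 1474 bp wide with −log10 q of 12.4 and rank 384. It was followed in replicate 2 by IV 9667966 to 9668673 (8.64) and IV 7313820 to 7314301 (8.37). In replicate 1 the strongest were IV 4093140 to 4093509 (6.99), IV 620285 to 620673 (6.90) and IV 3647336 to 3647994 (5.84), all in the left arm. Each of these 6 overlapped a combined peak. All the same, 1 peak of replicate 1 (0.37%, against 0.736% over all chromosomes) and 15 of replicate 2 (3.83%, against 2.85%) overlapped none. That of replicate 1 was IV 4014528 to 4014981 (4.18). The strongest of replicate 2 were IV 2209522 to 2209813 (5.35), IV 17089043 to 17089477 (5.26) and IV 17095751 to 17096015 (4.90), and all 4 named here were found in a single replicate.

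Of the 241 peaks found in both replicates, 229 overlapped a single peak in each. In these the ratio of the combined −log10 q to the mean of the replicate values had a median of 1.82 (quartiles 1.63 and 2.06). It was no higher than 1 in 3 of them and exceeded 3 in 1, IV 2664212 to 2666935 (3.48), singled out by this ratio, whose replicate 1 and replicate 2 peaks did not overlap each other. The lowest ratio, 0.77, was that of IV 4467928 to 4469347. Its replicate peaks also overlapped the widest combined peak, so this ratio does not set like intervals side by side. In the other 12 peaks a replicate had 2 or more peaks. The ratio to the peak of largest overlap alone had a median of 2.77 there and exceeded 3 in 5, but it sets a joined interval against 1 of its pieces. The combined data presumably come from the same ChIP samples as the replicate lists, and depth is unknown. All these ratios are therefore descriptions only.

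Chromosome IV had 35.6 combined peaks per Mb against 38.03 on the other autosomes, a ratio of 0.94 (exact binomial test, adjusted p = 0.29). The ratio was 0.97 in replicate 1 and 1.06 in replicate 2, and neither passed. The value for the other autosomes rests on chromosome III, with 61.1 per Mb, and on V, with 26.3. Without III the ratio was 1.12 (exact binomial test, adjusted p = 0.071), and without V it was 0.82 (exact binomial test, adjusted p = 9.1e-05). In arms lay 46.3% of the peaks of chromosome IV and 43.5% of those of the other autosomes (difference 2.80 percentage points, interval −1.55 to 7.18; Fisher's exact test, adjusted p = 0.38). This difference was 0.024 percentage points without V and 4.01 without III, and it passed in neither case.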

How the data were processed

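Peak lists of ChIP replicates 1 and 2 and a combined list were analysed. Per the file headers and source column, the authors called peaks with PeakSeq on WormBase WS180 and deposited a q-value for each. Its version, the aligner, filters, q cut-off and way of combining are not given in the sources used. Depth is unknown. The strength, −log10 q, was computed from the deposited values. Extents run to the last peak end in any list, and peaks were placed by midpoint. Shares were compared by two-sided Fisher's exact tests and density by an exact binomial test, with Benjamini-Hochberg adjustment over 12 tests and a threshold of 0.05. Wilson intervals (95%) and Newcombe's intervals of differences cover counting of peaks only. P-values concern these lists, not worm cultures, and clustering of peaks makes them too small. Chromosome, measures and tests were chosen with earlier results of these data known. Regions named are the 10 strongest and 5 widest peaks, the 3 strongest per region and of those in neither replicate, the 5 largest clusters, the 3 longest gaps, and up to 3 peaks per replicate with no partner. A sixth cluster, the fullest and emptiest bins, a peak of high ratio and the neighbour of the widest peak were added after their values were seen. Alternatives changed the overlap, width, gap, arm, extent and q settings, used each replicate list alone, joined peaks, or omitted single autosomes, of which chromosome II was added after seeing the data. Procedures were tested on simulated lists, in which peaks were placed independently within regions, so p-values for clustered peaks were not checked. Versions were Python 3.11.15, numpy 2.4.6, scipy 1.17.1, and pandas 2.3.3, with matplotlib 3.10.9 for figures.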

Additional observations from a re-analysis of the deposited data

How the results depend on the processing

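Of 88 alternatives over 12 results, 68 kept the direction and the side of the threshold, 14 turned the direction, 4 moved a result past the threshold and 2 took it off. None of the 14 passed, nor had their results as reported. Values below are differences in percentage points unless called ratios, and the cause of each change was not tested. The left arm excess, 14.5 as reported, stayed positive in all of its 9 alternatives (11.7 to 18.4). It was 12.2 and did not pass in the peaks up to the median q (adjusted Fisher's exact p = 0.11), where fewer peaks were tested, and 12.5 to 14.3 with each replicate list alone. The density ratio was 1.12 without chromosome III and 0.82 without V, and 0.97 to 1.06 with each replicate list alone. The share in neither replicate passed with a reciprocal overlap of 50% (−5.99) and without chromosomes III (−8.06) or II (−6.12). Replicate 1 peaks found in replicate 2 turned to −4.93 up to the median q. The wide share turned to 0.58 up to the median q, 0.11 without V and 0.18 without II, and was −2.77 to 0.064 with each replicate list alone. For arms against centre it turned to 2.22 when the arms were widened to a larger outer share of the extent. The clustered share turned to 4.04 up to the median q, 0.090 without III and 0.83 with a linking gap of 2000 bp. Presence in both replicates of clustered against other peaks turned to −2.79 with reciprocal overlap, −5.17 with midpoints within 200 bp and −2.24 up to the median q. No combined list was called anew. No paired analysis was possible because only the ChIP samples have peak lists here. Peak numbers can depend on sequencing depth, which is unknown.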
